A study of Homo sapiens with 27 samples.

Results

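The calpain system was followed at the RNA level in estrogen receptor-positive invasive lobular carcinoma cells that had been adapted to growth without estrogen. The 10 genes described are CAPN1, CAPN2, CAPN5, CAPN6, CAPN7, CAPN8, CAPN9, CAPN13, CAPNS1 and CAST. They were chosen by name from the 60619 genes of the count table, with earlier results of these data known. All 10 were found and tested in every comparison. RNA-Seq libraries came from MM134 cells (MDA-MB-134VI) and SUM44 cells (SUM44PE), both human invasive lobular carcinoma lines. Long-term estrogen-deprived (LTED) variants had been derived from each line over months in charcoal-stripped serum, which lacks steroid hormones. The paper states that the stripping also takes out other lipophilic compounds. Each variant is a separately grown clone of 1 line. Each of 9 groups had 3 libraries. Parental cells came as MM134, SUM44PE and SUM44F, the LTED variants of SUM44 are named A and B, and those of MM134 are named A, B, D and E. SUM44F is the SUM44PE line moved to another medium with serum, and it is the parental culture to which the SUM44 LTED variants were compared. Before collection, parental cells too were kept for 3 days without hormones, so the comparisons set prolonged against short deprivation. They also set prolonged against short culture in the medium with stripped serum, since parental cells were otherwise grown in other media. The 3 libraries of a group were wells of 1 culture, so that p-values measure only the spread between these wells.

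Calpains are intracellular cysteine proteases that need calcium and cut their substrates at few sites, which changes the activity of a protein more often than it destroys it. The conventional enzymes, calpain-1 (CAPN1) and calpain-2 (CAPN2), each pair with the small subunit CAPNS1 and are held in check by calpastatin (CAST). Their known substrates include cytoskeletal and adhesion proteins such as talin, filamin and spectrin, and they take part in cell spreading and migration. Other family members are tied to certain tissues, as CAPN8 and CAPN9 are to the stomach, or lack parts of the conventional enzyme, as CAPN5, CAPN6 and CAPN7 do.

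Libraries held 28583554 to 134882175 counts, and levels are given as CPM, counts scaled to a common library size. Between replicates 2 and 3 of LTED-A from SUM44 the counts agreed within sampling noise, with a chi-square statistic per degree of freedom of 0.312, where the other 26 pairs of replicates had 2.35 to 58.3. They were counted as 1 sample, which leaves 2 samples for that variant and 26 in all. The 7 luminal markers examined, keratins KRT8, KRT18 and KRT19 and the factors GATA3, FOXA1 and ESR1 among them, were well detected in each group, the lowest group mean being 81.0 CPM for GATA3 in MM134 LTED-E. One library stood apart: SUM44F replicate 1 held 270 CPM of the 4 fibroblast markers summed (COL1A1, COL3A1, DCN and PDGFRB), against 8.55 and 7.33 CPM in the other SUM44F libraries. Results that rest on SUM44F were therefore also computed without it. In bulk RNA, fewer cells that express a gene and less RNA per cell cannot be told apart.

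A gene was called differentially expressed (DE) when it changed more than 1.5-fold in either direction with an adjusted p under 0.001 (edgeR's quasi-likelihood test, two-sided, Benjamini-Hochberg adjustment over all genes tested). In MM134, 2 of the 10 genes were upregulated and 2 downregulated in LTED-A, where 20.3% of the 26061 genes tested were DE (10.5% up, 9.82% down). The same counts, 2 up and 2 down, were found in LTED-B, where 15.9% of all genes were DE (8.11% up, 7.75% down), and in LTED-E, where the share was 19% (8.71% up, 10.3% down). In LTED-D, 1 gene was upregulated and 2 were downregulated, with 17.6% of all genes DE (9.63% up, 7.95% down). In SUM44, 1 gene was upregulated and 4 were downregulated in LTED-A, where 13.7% of the 26834 genes tested were DE (6.39% up, 7.28% down). In LTED-B, 1 was upregulated and 3 downregulated, against 17.3% of all genes (8.69% up, 8.57% down). Between SUM44PE and SUM44F, 1 member was DE, upward in SUM44PE, against 5.57% of 27457 genes (2.85% up, 2.72% down). The median log2 fold change over the 10 genes was 0.26, 0.38, -0.11 and -0.01 in MM134 LTED-A, B, D and E, where that over all genes tested was -0.01, 0.02, -0.03 and 0.02. For the SUM44 variants A and B it was -0.24 and -0.28, and over all genes -0.06 and -0.09. Among protein-coding genes alone, 10.2% to 13.8% were upregulated and 10.2% to 13.8% downregulated in the MM134 variants, and 9.63% and 13.8% were upregulated and 10.5% and 11.2% downregulated in SUM44 LTED-A and B. The genes that moved were CAPN2, CAPN5, CAPN6, CAPN8, CAPN9 and CAST. CAPN1, CAPN7, CAPN13 and CAPNS1 were DE in no LTED variant and not in SUM44PE.

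**Figure D1:**
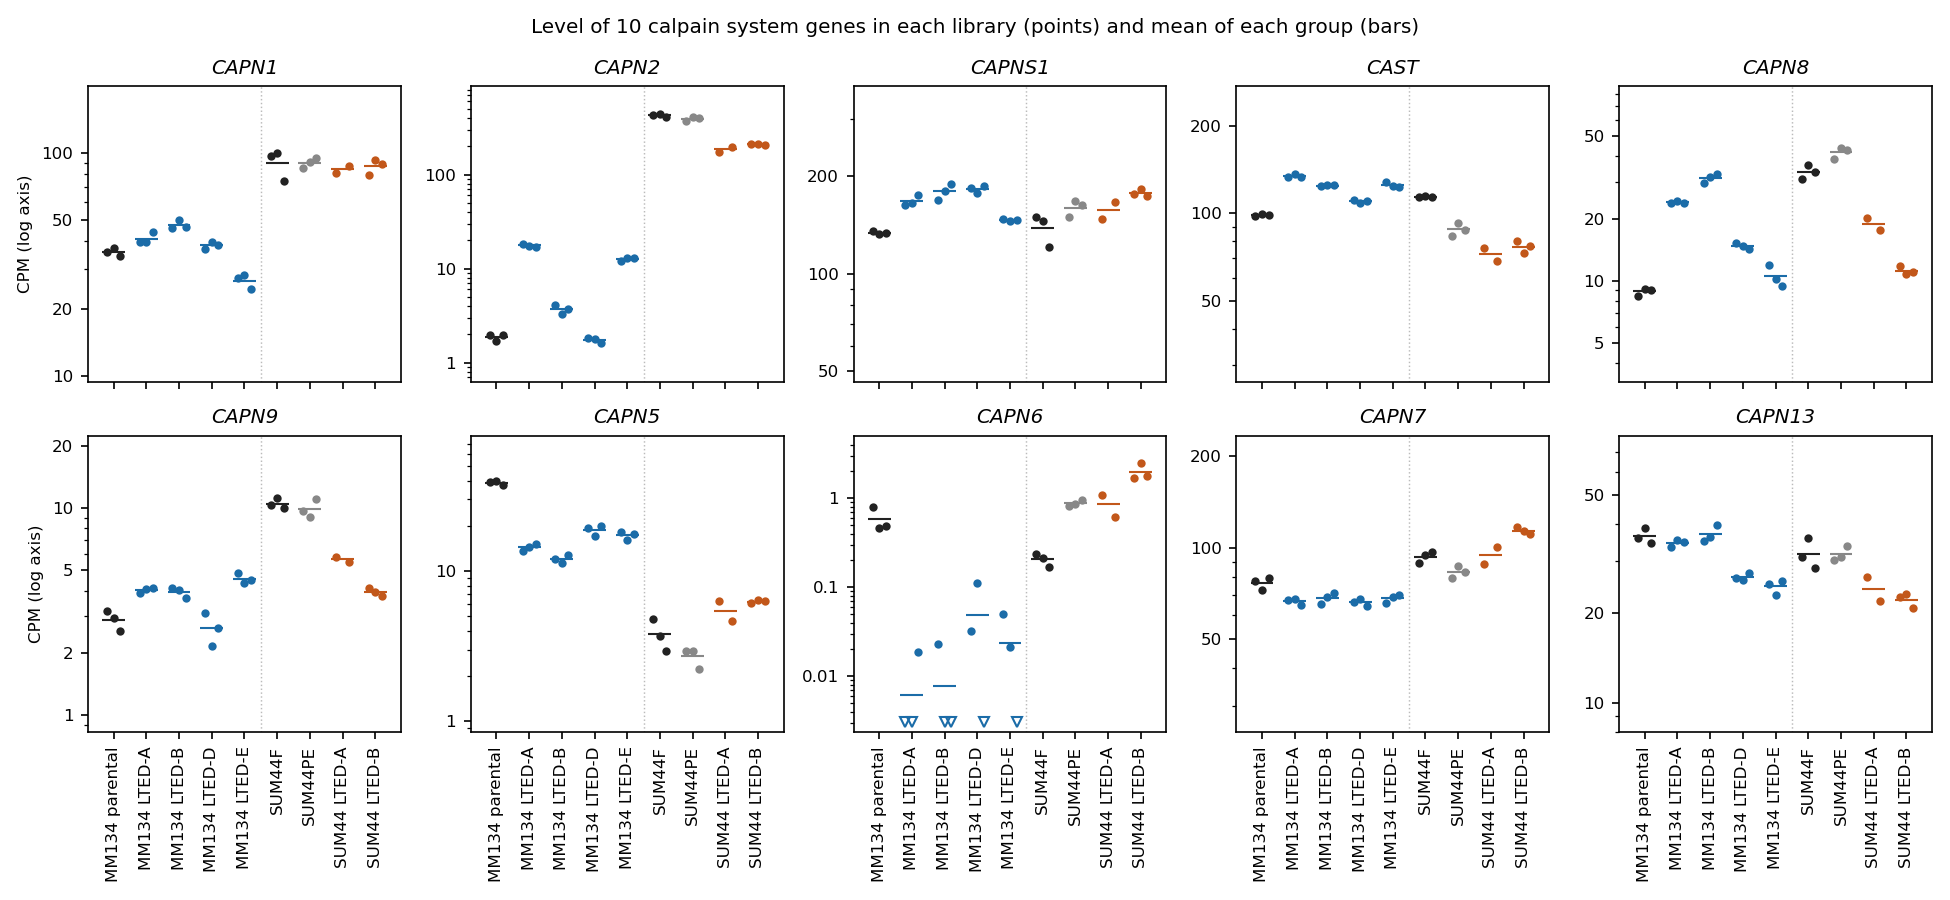
Level of each gene in each library, in CPM on a log axis that differs between panels. Points are libraries, horizontal bars are group means and open triangles are libraries with a count of 0. Blue marks MM134 LTED, orange SUM44 LTED, black the parental cultures MM134 and SUM44F, and grey SUM44PE. CAPN2 ran from 1.63 CPM in MM134 LTED-D to 438 CPM in SUM44F, while CAPNS1 stayed between 121 and 190 CPM in all libraries.

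**Figure D2:**
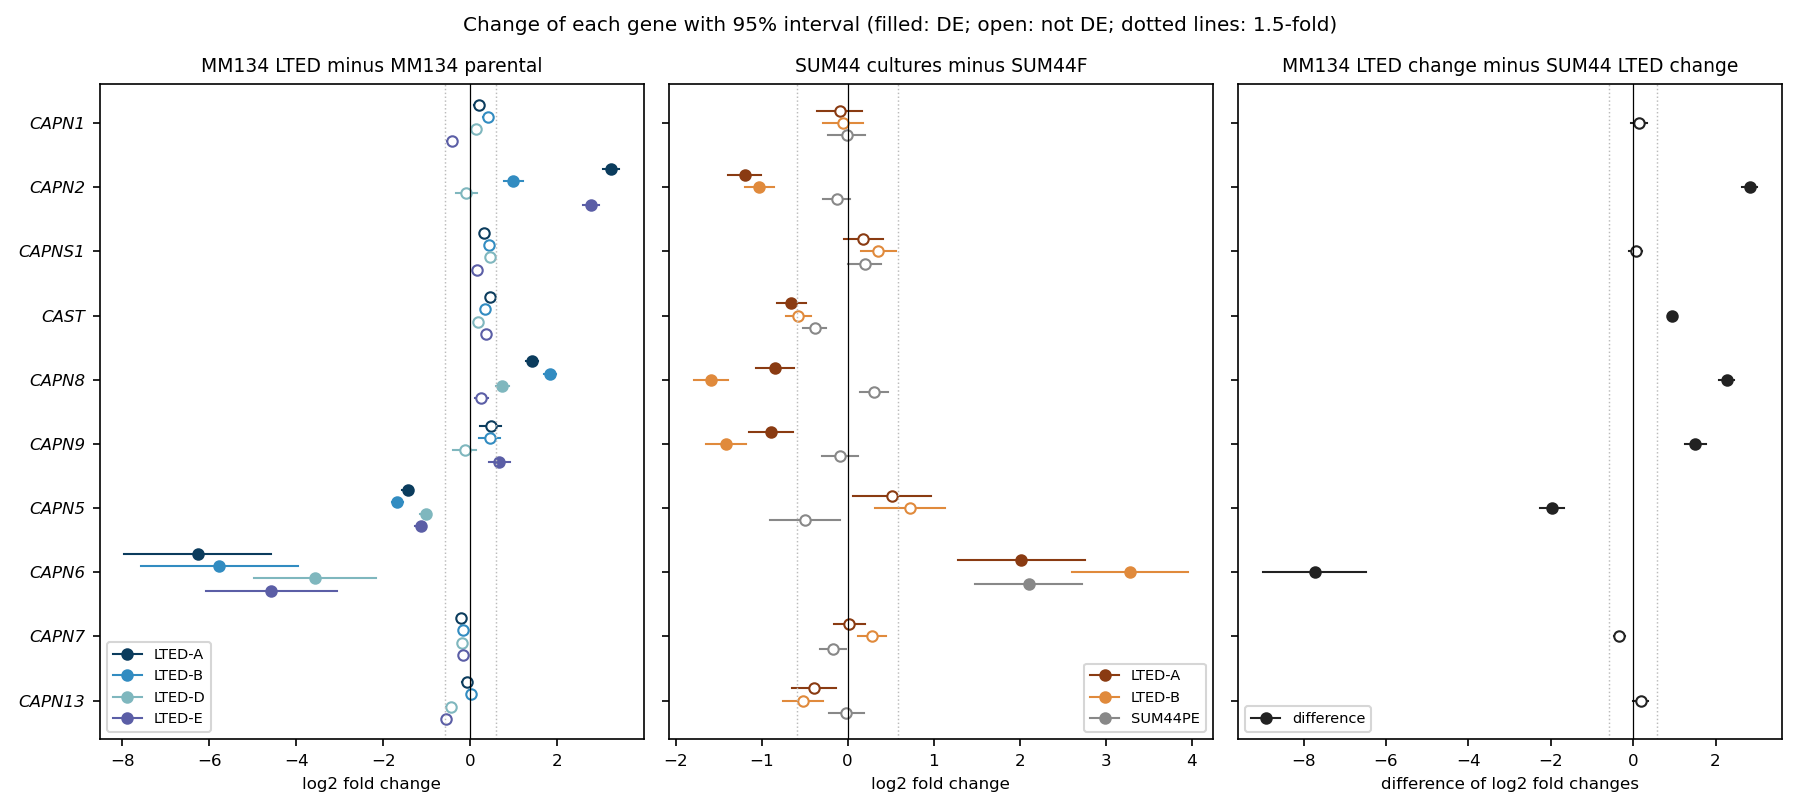
Log2 fold change of each gene with its 95% interval in each LTED variant and in SUM44PE, and in the right panel the mean change in MM134 (4 variants) less the mean change in SUM44 (2 variants). Filled points are DE, open points are not, and dotted lines mark a change of 1.5-fold. CAPN2 and CAPN8 lie to the right of 0 in MM134 LTED-A and LTED-B and to the left of 0 in both SUM44 LTED variants, and CAPN6 does the opposite.

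CAPN2, the catalytic subunit of calpain-2, was the member with the largest difference between the parental cultures of the lines. It stood at 1.97, 1.70 and 1.94 CPM in MM134 parental cells. It reached 18.4, 17.5 and 17.0 CPM in LTED-A cells, 12.2, 12.8 and 13 CPM in LTED-E, and 4.09, 3.28 and 3.73 CPM in LTED-B. In LTED-D the levels were 1.81, 1.80 and 1.63 CPM. Every library of LTED-A, LTED-B and LTED-E was above every parental library, and LTED-D overlapped with the parental cells. CAPN2 thus rose 9.40-fold in LTED-A (log2 fold change 3.23, SE 0.09, edgeR adjusted p = 2.97e-16), 6.82-fold in LTED-E (2.77, SE 0.09, adjusted p = 4.35e-15) and 1.99-fold in LTED-B (0.99, SE 0.10, adjusted p = 9.89e-08). The interval in LTED-D ran from -0.33 to 0.15 on the log2 scale (adjusted p = 0.633).

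In SUM44, where CAPN2 was abundant, the change went the other way. SUM44F had 431, 438 and 415 CPM and SUM44PE 375, 412 and 395 CPM. The 2 samples of LTED-A had 176 and 196 CPM, and LTED-B had 212, 212 and 206 CPM. Both variants lay below every parental library without overlap. CAPN2 fell 2.30-fold in LTED-A (log2 fold change -1.20, SE 0.09, edgeR adjusted p = 2.21e-06) and 2.04-fold in LTED-B (-1.03, SE 0.08, adjusted p = 1.91e-06), and was not DE between SUM44PE and SUM44F (-0.13, interval -0.28 to 0.03, adjusted p = 0.238). Without SUM44F replicate 1, the changes were -1.20 and -1.02. Despite the fall, CAPN2 in the SUM44 variants remained over the highest level of any MM134 library, 18.4 CPM.

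Some markers of other cell types also differed between these groups, not always in step with CAPN2, and their part in the result was not tested. The 5 immune markers summed to between 0.458 and 0.972 CPM in MM134 parental libraries and to between 9.52 and 10.5 CPM in LTED-A, nearly all of it LYZ at 9.75 CPM, while PTPRC, which marks leukocytes at large, had group means of 0.129 to 0.256 CPM over the MM134 groups. The immune sums were 1.82 to 2.23 CPM in LTED-B, 1.02 to 1.35 CPM in LTED-D and 2.03 to 2.70 CPM in LTED-E. Those of LTED-B and LTED-E overlapped, while CAPN2 was higher in LTED-E. LTED-D lay above the parental sums, while CAPN2 was not DE there. The 3 endothelial markers summed to 25.8 to 40.5 CPM in SUM44F, 10.8 to 11.1 CPM in SUM44PE and 2.80 to 4.51 CPM in the SUM44 LTED variants. Most of it was PECAM1, while CDH5 had group means of 0.0984 to 0.344 CPM in SUM44. CAPN2 was not DE between SUM44PE and SUM44F.

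CAPN1, the catalytic subunit of calpain-1, was comparatively steady. It measured 35.7, 37.3 and 34.2 CPM in MM134 parental cells, between 37.1 and 49.6 CPM in LTED-A, LTED-B and LTED-D, and 27.3, 28.1 and 24.4 CPM in LTED-E. LTED-E lay below the parental libraries and LTED-A and LTED-B above them, but none of these differences passed the fold minimum. The log2 differences were 0.20, 0.41 and 0.12 in LTED-A, B and D and -0.42 in LTED-E, the last with an edgeR adjusted p of 3.74e-06. In SUM44 the gene ranged from 74.8 to 99.4 CPM over all groups with overlap throughout, and the differences from SUM44F were -0.09 in LTED-A (interval -0.36 to 0.17) and -0.05 in LTED-B (interval -0.29 to 0.18).

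CAPNS1, the subunit that stabilises both conventional calpains, was expressed at much the same level in both lines. In MM134 it had 136, 133 and 134 CPM in parental cells and 146 to 190 CPM in the LTED libraries, all above the parental ones. The log2 differences of 0.32, 0.43, 0.46 and 0.14 in LTED-A, B, D and E stayed below 1.5-fold. In SUM44F it had 150, 146 and 121 CPM, and the variants differed from it by 0.18 (interval -0.04 to 0.41) and 0.36 (interval 0.16 to 0.56).

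CAST, the inhibitor of the conventional calpains, was higher in all MM134 LTED libraries than in parental cells, by less than 1.5-fold. Parental cells had 97.6, 99.2 and 98.9 CPM and LTED-A 133, 137 and 133 CPM. LTED-B, LTED-D and LTED-E ranged from 109 to 129 CPM. The parental libraries lay below all others and those of LTED-A above them, while LTED-B lay within the range of LTED-E. The log2 differences were 0.44, 0.34, 0.17 and 0.36 in LTED-A, B, D and E, with edgeR adjusted p-values of 2.38e-11, 1.69e-09, 1.65e-05 and 6.84e-10. In SUM44, CAST was at 114 CPM in each SUM44F library, at 76.1 and 68.5 CPM in LTED-A and at 80.1, 73.2 and 76.9 CPM in LTED-B. It fell 1.58-fold in LTED-A (log2 fold change -0.66, SE 0.08, adjusted p = 6.20e-05), and without LTED-A replicate 2 the change of -0.58 missed the fold minimum. In LTED-B the difference of -0.57 (SE 0.07, adjusted p = 5.21e-05) missed the fold minimum. SUM44PE, at 83.6, 93.0 and 87.8 CPM, was also below SUM44F, by 0.38 on the log2 scale, again under 1.5-fold.

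CAST overlaps ERAP1, an aminopeptidase gene on the opposite strand with a median count of 2017. The libraries were stranded, but the strand setting of the counting is not stated. Whether reads from the shared stretch were assigned by strand is therefore not known. ERAP1 differed by 0.31, 0.20, 0.47 and 0.16 on the log2 scale in MM134 LTED-A, B, D and E, none of them DE, and by -0.92 in SUM44 LTED-A, which was DE. In SUM44 LTED-B it differed by -0.21 and in SUM44PE by 0.19. It had the sign of CAST in all 6 LTED variants and the opposite sign in SUM44PE, and in the test of the lines against each other it was DE at 0.84, beside 0.94 for CAST.

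Set against each other per kilobase of canonical transcript, the conventional calpains changed places between the lines. The scale in this paragraph is CPM per kilobase. In MM134 parental cells CAPNS1 had 93.9, CAST 22.0, CAPN1 12.1 and CAPN2 0.556. In SUM44F CAPN2 had 127, CAPNS1 97.3, CAPN1 30.5 and CAST 25.4. CAPN2 made up 4.41% ± 0.49 (SD, n = 3) of the sum of CAPN1 and CAPN2 in MM134 parental cells, 27.3% ± 1.81 (n = 3) in LTED-A, 29.5% ± 2.02 (n = 3) in LTED-E, 6.44% ± 0.89 (n = 3) in LTED-B and 3.82% ± 0.27 (n = 3) in LTED-D. In SUM44 this share was 80.7% ± 1.94 (n = 3) in SUM44F, 79.4% ± 0.63 (n = 3) in SUM44PE, 65.9% ± 0.63 (n = 2) in LTED-A and 68.0% ± 1.80 (n = 3) in LTED-B. The share thus lay above all parental libraries in LTED-A, LTED-B and LTED-E of MM134, below them in both SUM44 variants, and overlapped with them in MM134 LTED-D.

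The ratio of CAST to the summed conventional calpains, again per kilobase, differed by line more than by variant. It was 1.74 ± 0.07 (SD, n = 3) in MM134 parental cells and between 1.56 and 2.19 in the MM134 variants. In SUM44F it was 0.161 ± 0.008 (n = 3), and in SUM44 LTED-A and LTED-B it was 0.193 and 0.186. The ratio of CAPNS1 to that sum went from 0.615 ± 0.042 (n = 3) in SUM44F to 1.31 in LTED-A and 1.36 in LTED-B, and in SUM44PE it was 0.760. In MM134 the same ratio was 7.42 in parental cells, with the lowest value of 6.14 in LTED-A and the highest of 9.44 in LTED-D. These are ratios of RNA levels, and they depend on the transcript lengths assumed.

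**Figure D3:**
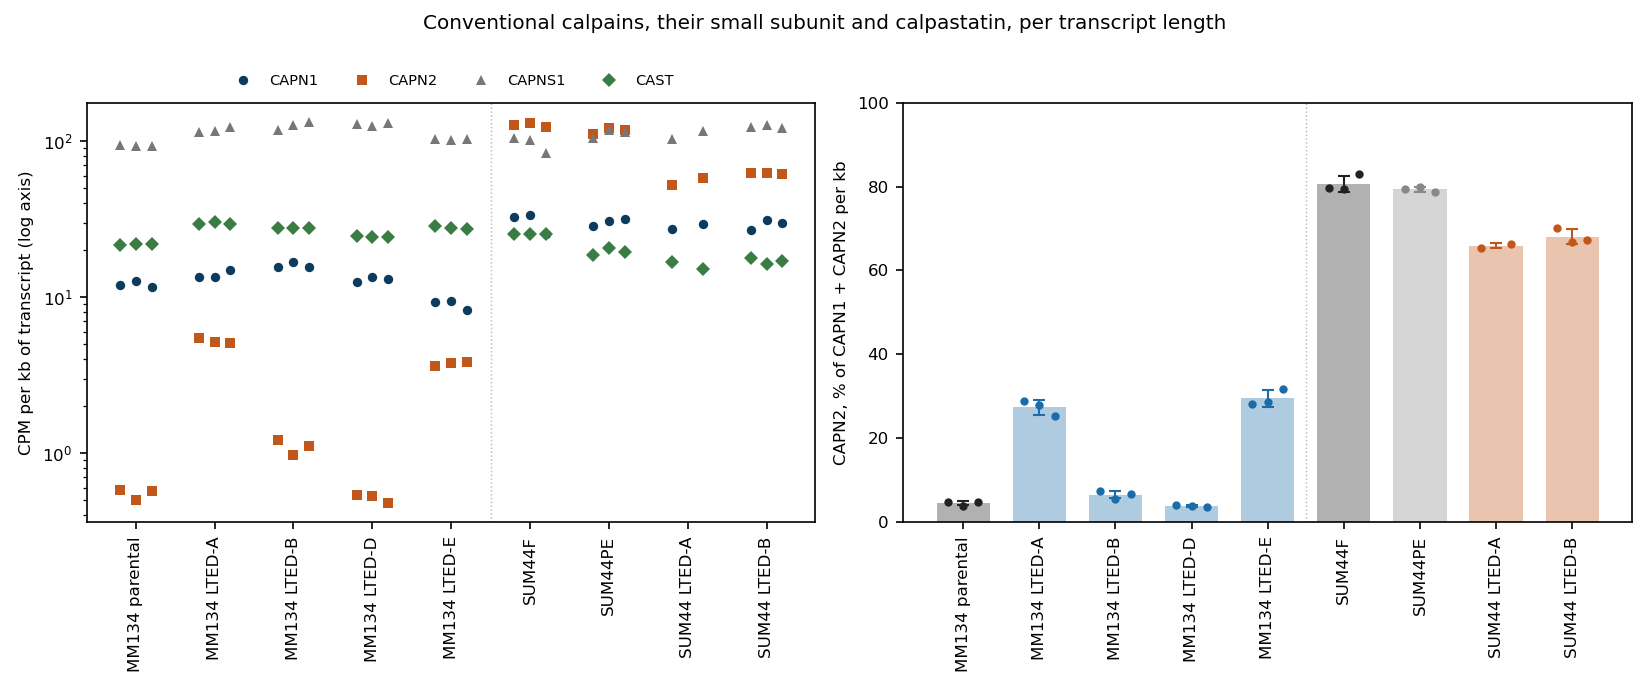
Left, CAPN1, CAPN2, CAPNS1 and CAST in each library, in CPM per kilobase of canonical transcript on a log axis. Right, CAPN2 as a percentage of CAPN1 plus CAPN2 per kilobase, with bars for group means, error bars for the SD and points for libraries. The share lies under 32% in all MM134 libraries and over 65% in all SUM44 libraries.

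CAPN8, a calpain best known from the gastric mucosa, was DE in the direction of CAPN2 in MM134 LTED-A, MM134 LTED-B and both SUM44 variants, while the calls of the pair differed in MM134 LTED-D and LTED-E. MM134 parental cells had 8.46, 9.17 and 9.04 CPM. LTED-B had 29.8, 31.8 and 32.9 CPM, LTED-A 23.8, 24.3 and 23.8 CPM, LTED-D 15.2, 14.8 and 14.2 CPM, and LTED-E 12, 10.2 and 9.49 CPM. All LTED libraries were above the parental ones, those of LTED-E only narrowly. CAPN8 rose 3.55-fold in LTED-B (log2 fold change 1.83, SE 0.07, edgeR adjusted p = 5.38e-14), 2.68-fold in LTED-A (1.42, SE 0.07, adjusted p = 1.32e-12) and 1.67-fold in LTED-D (0.74, SE 0.07, adjusted p = 5.52e-08), and was not DE in LTED-E (0.25, SE 0.07, adjusted p = 0.00651). The variant with one of the largest increases of CAPN2, LTED-E, was thus the one in which CAPN8 was not DE, and in LTED-D CAPN8 rose while CAPN2 did not.

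In SUM44F, CAPN8 had 31.2, 36.3 and 33.6 CPM, and in SUM44PE 39.0, 43.7 and 42.8 CPM. LTED-A had 20 and 17.6 CPM and LTED-B 11.8, 10.8 and 11 CPM. The 4 cultures of this line did not overlap. CAPN8 fell 1.79-fold in LTED-A (log2 fold change -0.84, SE 0.10, edgeR adjusted p = 7.45e-05) and 3.02-fold in LTED-B (-1.59, SE 0.09, adjusted p = 2.49e-07), and SUM44PE was above SUM44F by 0.30 without being DE (adjusted p = 0.0109). Without SUM44F replicate 1 the changes in the variants were -0.90 and -1.65.

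CAPN9, the partner with which CAPN8 forms a complex in the stomach, was the less abundant of the pair. It had 3.17, 2.94 and 2.56 CPM in MM134 parental cells and 4.84, 4.34 and 4.51 CPM in LTED-E. In LTED-A and LTED-B all libraries lay between 3.68 and 4.13 CPM, and in LTED-D between 2.16 and 3.10 CPM. Only LTED-D overlapped with the parental cells. CAPN9 rose 1.58-fold in LTED-E (log2 fold change 0.66, SE 0.11, edgeR adjusted p = 6.51e-05), while LTED-A (0.47) and LTED-B (0.45) were not DE. In SUM44 it went from 10.4, 11.2 and 10.1 CPM in SUM44F to 5.81 and 5.51 CPM in LTED-A and 4.13, 3.96 and 3.78 CPM in LTED-B, without overlap. It fell 1.86-fold in LTED-A (-0.90, SE 0.12, adjusted p = 0.000138, a call lost without SUM44F replicate 2 or either LTED-A sample) and 2.67-fold in LTED-B (-1.42, SE 0.10, adjusted p = 1.83e-06). SUM44PE, at 9.10 to 11.1 CPM, overlapped with SUM44F.

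CAPN2 (chr1:223701593-223776018, plus strand, hg38) and CAPN8 (chr1:223538007-223665723, minus strand) lie head to head, 35869 bases apart with 0 protein-coding genes between. The 250 bases upstream of the transcription starts listed by RefSeq (GRCh38.p14) are shown for both genes because these neighbours moved in the same direction within each line in several variants. Capitals mark TGANTCA, the letters of an AP-1 type site, searched on both strands. The lines are 5′ to 3′ on the strand of the gene: CAPN2 at chr1:223701347-223701596 (plus), CAPN2 at chr1:223712289-223712538 (plus) and CAPN8 at chr1:223665702-223665951 (minus).
CAPN2, first start: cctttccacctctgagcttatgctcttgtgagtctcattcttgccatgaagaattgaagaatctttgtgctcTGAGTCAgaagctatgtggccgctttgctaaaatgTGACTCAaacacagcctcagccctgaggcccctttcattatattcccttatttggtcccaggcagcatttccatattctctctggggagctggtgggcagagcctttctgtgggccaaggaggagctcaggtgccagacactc
CAPN2, second start: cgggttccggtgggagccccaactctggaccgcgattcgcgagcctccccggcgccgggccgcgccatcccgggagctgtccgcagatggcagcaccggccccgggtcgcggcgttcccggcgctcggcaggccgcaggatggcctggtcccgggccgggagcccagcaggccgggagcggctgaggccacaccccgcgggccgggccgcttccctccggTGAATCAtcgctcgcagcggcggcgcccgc
CAPN8: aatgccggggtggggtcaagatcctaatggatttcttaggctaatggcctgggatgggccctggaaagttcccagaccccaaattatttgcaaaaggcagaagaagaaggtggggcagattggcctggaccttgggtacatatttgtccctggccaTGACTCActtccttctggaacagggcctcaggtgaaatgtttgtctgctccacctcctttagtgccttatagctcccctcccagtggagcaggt
The upstream stretch of the first CAPN2 start holds the letters at -178 and -143, counted to the first base of the match, that of the second start at -30, and that of CAPN8 at -94. Of the 17 stretches found for 9 of the 10 genes, 5 stretches of 4 genes held TGANTCA, the others being of CAPN6 and CAST, against 6.57% of 35116 stretches of all genes. The full estrogen response element, GGTCA followed after 3 bases by its reverse complement, was in 0 of these 9 genes (0.0399% of all stretches). The letters GGTCA alone were found for 5 of these 9 genes, and over all genes for 10281 of 27305. By stretch, 32.6% of all stretches held them. A gene with several stretches has more places for a match. A match of letters is a description of the sequence and was not tested as a binding site.

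Genes around CAPN2 and CAPN8 moved too in MM134. Of the 40 nearest tested protein-coding genes around CAPN2, CAPN8 among them, 15 were upregulated and 1 downregulated in LTED-A, where 13.8% of the 15440 protein-coding genes tested were upregulated and 13.2% downregulated. In LTED-B, LTED-D and LTED-E, 13, 13 and 10 of the 40 were upregulated, against 10.2%, 13.4% and 11.7% of protein-coding genes, and 1 was downregulated in each. The medians of the 40 were 0.46, 0.34, 0.34 and 0.31 in LTED-A, B, D and E, where all protein-coding genes had 0.00, 0.00, 0.02 and 0.01. CAPN2 ranked 3rd of the 41 genes in LTED-A and 3rd in LTED-E, but 11th in LTED-B and 32nd in LTED-D. CAPN8 ranked 6th in LTED-B, 8th in LTED-A, 10th in LTED-D and 23rd in LTED-E. In SUM44 the median around CAPN2 was 0.00 in LTED-A and -0.05 in LTED-B, and CAPN2 was 38th and 36th and CAPN8 37th and 40th of 41. What part the shift of the surrounding genes had in the changes of CAPN2 and CAPN8 in MM134 was not tested.

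**Figure D4:**
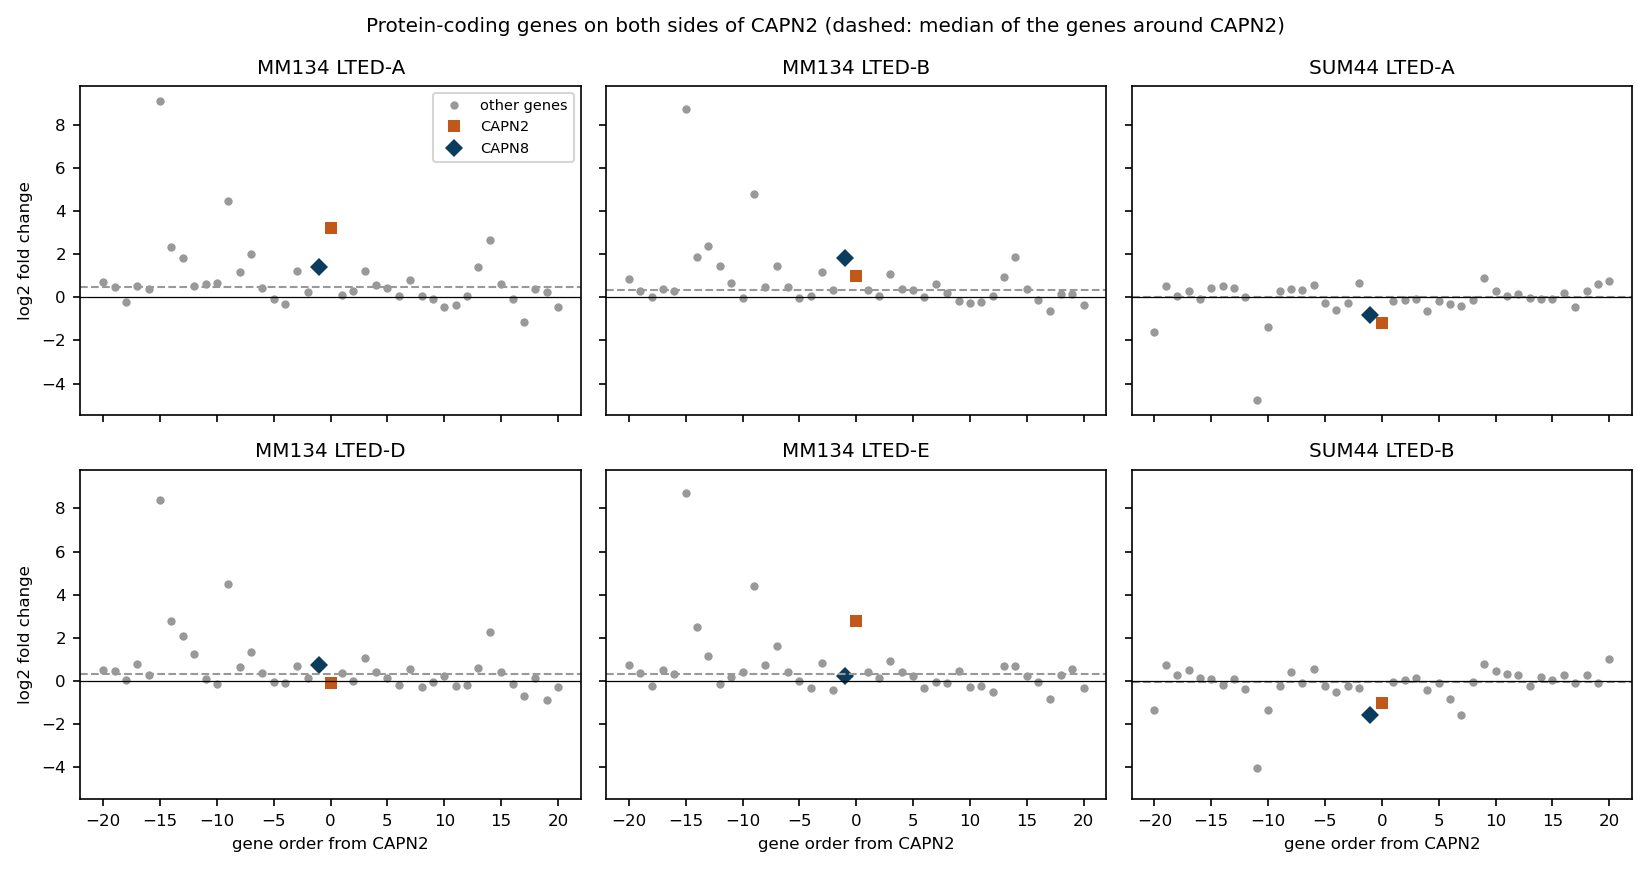
Log2 fold change of CAPN2 (square), CAPN8 (diamond) and the other protein-coding genes tested within 20 genes on either side of CAPN2, by their order on the chromosome, in each LTED variant. The dashed line is the median of the 40 genes around CAPN2, which lies above 0 in the MM134 variants and near 0 in SUM44.

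CAPN5, a calpain without the calcium-binding domain that the conventional enzymes share with CAPNS1, fell in all 4 MM134 variants. Parental cells had 39.1, 39.7 and 37.5 CPM. The variants had 13.7, 14.4 and 15 CPM (LTED-A), 12.1, 11.3 and 12.7 CPM (LTED-B), 19.4, 17.1 and 20.1 CPM (LTED-D) and 18.3, 16.2 and 17.8 CPM (LTED-E). All 12 LTED libraries were far below the parental range. The decrease was 3.21-fold in LTED-B (log2 fold change -1.68, SE 0.06, edgeR adjusted p = 4.72e-14), 2.72-fold in LTED-A (-1.44, SE 0.06, adjusted p = 1.41e-13), 2.21-fold in LTED-E (-1.14, SE 0.06, adjusted p = 5.15e-12) and 2.04-fold in LTED-D (-1.03, SE 0.06, adjusted p = 3.69e-11).

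In SUM44, CAPN5 was scarce. SUM44F had 4.82, 3.69 and 2.95 CPM, SUM44PE 2.93, 2.96 and 2.22 CPM, LTED-A 6.30 and 4.63 CPM, and LTED-B 6.11, 6.4 and 6.31 CPM. LTED-B was above all SUM44F libraries and LTED-A overlapped with them. The differences were 0.52 in LTED-A (interval 0.07 to 0.97, edgeR adjusted p = 0.0717) and 0.72 in LTED-B (interval 0.31 to 1.13, adjusted p = 0.0086), neither of them DE in the fit of SUM44F and its variants. The fit of all 9 groups, which estimates the spread from more libraries, called CAPN5 in LTED-B (0.74, adjusted p = 4.04e-05), as did DESeq2 (adjusted p = 0.000336), and in that fit SUM44PE was lower than LTED-A by 0.99 and lower than LTED-B by 1.21, both DE. The highest SUM44F value was that of replicate 1, and without it the differences were 0.71 and 0.92 (adjusted p = 0.0128 and 0.00163).

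CAPN6, a family member that lacks the catalytic cysteine and binds microtubules, was the rarest, with fewer than 1 CPM in most libraries. MM134 parental libraries had 28, 17 and 15 counts. LTED-A had 0, 0 and 1, LTED-B 1, 0 and 0, LTED-E 2, 1 and 0, and LTED-D 1, 4 and 0 counts. No LTED library came near the parental counts. CAPN6 was DE in all 4 variants (edgeR adjusted p = 1.85e-06 in LTED-A, 1.47e-05 in LTED-B, 2.37e-05 in LTED-E and 0.000162 in LTED-D). Genes with low counts were removed before testing, and in MM134 this gene was kept through the parental libraries alone. For CAPN6 only a fall could therefore be called in this line. Taking 3 counts per library as the limit of detection, its level was lower by at least 12.3-fold in LTED-A, at least 8.11-fold in LTED-B and at least 8.91-fold in LTED-E. For LTED-D the fitted log2 fold change was -3.58 (SE 0.67). The call in LTED-D was lost without parental replicate 1, the library with 28 counts (adjusted p = 0.0017), or without LTED-D replicate 1 or replicate 3. The LTED-D library with 4 counts, replicate 2, had COL3A1 at 5.22 CPM against 0.0969 and 0.0232 CPM in replicates 1 and 3. Among the parental libraries COL3A1 was at 5.54 CPM in replicate 3 and at 0.114 and 0.0540 CPM in replicates 1 and 2. There CAPN6 was highest in replicate 1, at 0.801 CPM, with 0.459 and 0.486 CPM in replicates 2 and 3. In SUM44F replicate 1, with 270 CPM of fibroblast markers, CAPN6 was at 0.239 CPM, against 0.215 and 0.167 CPM in replicates 2 and 3. In MM134 the 4 fibroblast markers summed to 20 to 30.8 CPM in the parental libraries and to 7.43 to 23.5 CPM over the LTED libraries. Their part in the change of CAPN6 was not tested.

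In SUM44 the same gene rose. SUM44F had 0.239, 0.215 and 0.167 CPM (11, 11 and 15 counts), LTED-A 1.09 and 0.614 CPM, and LTED-B 1.69, 2.50 and 1.79 CPM. SUM44PE, with 0.814, 0.866 and 0.958 CPM, was also above SUM44F, and none of these cultures overlapped with it. CAPN6 was 4.05-fold higher in LTED-A (log2 fold change 2.02, SE 0.33, edgeR adjusted p = 0.000785), 9.75-fold higher in LTED-B (3.29, SE 0.30, adjusted p = 9.87e-06) and 4.30-fold higher in SUM44PE (2.10, SE 0.29, adjusted p = 0.00015). The call in LTED-A was made in 10 of 19 alternatives. It was lost without any 1 of the SUM44F or LTED-B libraries or without LTED-A replicate 1, with a replicate block (adjusted p = 0.00338) and in a fit of 1 variant. Without SUM44F replicate 1 the changes were 2.11 in LTED-A (adjusted p = 0.00156), 3.39 in LTED-B and 2.22 in SUM44PE, the last 2 still DE. Set against SUM44PE in the fit of all 9 groups, CAPN6 was DE in neither variant (0.10 higher in SUM44PE than in LTED-A, adjusted p = 0.862, and 1.17 lower than in LTED-B, adjusted p = 0.00342). The call in SUM44PE was lost without SUM44PE replicate 3 or SUM44F replicate 3, with adjusted p-values up to 0.00109.

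CAPN7, a widely expressed calpain that interacts with the membrane-sorting machinery of endosomes, ranged from 64.4 to 79.6 CPM over MM134 and from 79.5 to 117 CPM over SUM44. In MM134 its log2 differences were -0.21, -0.16, -0.20 and -0.16 in LTED-A, B, D and E. In SUM44 they were 0.02 in LTED-A (interval -0.16 to 0.20) and 0.28 in LTED-B (interval 0.12 to 0.44). CAPN13, a family member of little known function, had 36.0, 38.7 and 34.4 CPM in MM134 parental cells, 26 to 27.4 CPM in LTED-D and 23.1 to 25.8 CPM in LTED-E. These variants did not overlap with the parental cells, and the differences of -0.44 and -0.55 (edgeR adjusted p = 8.22e-07 and 3.52e-08) were below 1.5-fold. In LTED-A and LTED-B CAPN13 overlapped with the parental level. In SUM44 the differences were -0.39 (interval -0.65 to -0.13) and -0.52 (interval -0.75 to -0.28), not DE.

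Whether the 2 lines responded differently was tested with an interaction term, which takes the mean log2 fold change over 4 MM134 variants and subtracts the mean over 2 SUM44 variants. Its SE and p-value rest on the spread between wells and leave out that between variants. For CAPN2, MM134 LTED-A and LTED-D differed by -3.34 on the log2 scale. The interaction was DE for 6 of the 10 genes, against 20.9% of the 29200 genes tested (10.8% positive, 10.2% negative), and the 10 had a median of 0.16 where all genes had 0.06. As the 10 genes were chosen with earlier results of these data known, this count is a description. The difference was positive for CAPN2 (2.83, SE 0.09, edgeR adjusted p = 3.61e-17), CAPN8 (2.27, SE 0.09, adjusted p = 2.16e-15), CAPN9 (1.51, SE 0.12, adjusted p = 8.48e-10) and CAST (0.94, SE 0.05, adjusted p = 1.36e-13). It was negative for CAPN5 (-1.96, SE 0.14, adjusted p = 8.07e-11) and CAPN6 (-7.73, SE 0.60, adjusted p = 3.35e-10), the size of the last depending on counts near 0. For CAPN1 the interval of the difference was -0.06 to 0.34, for CAPNS1 -0.09 to 0.21, for CAPN13 0.00 to 0.37 and for CAPN7 -0.48 to -0.21, none of them DE. Leaving out SUM44F replicate 1, the count was again 6.

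The parental cultures of the lines differed themselves. In a fit of all 9 groups, 5 of the 10 genes were DE between MM134 parental cells and SUM44F, against 38.1% of the 29608 genes tested. SUM44F was higher in CAPN2 by 7.84 (SE 0.08, edgeR adjusted p = 5.85e-28), CAPN8 by 1.92 (SE 0.08, adjusted p = 6.87e-17), CAPN9 by 1.86 (SE 0.11, adjusted p = 1.12e-13) and CAPN1 by 1.33 (SE 0.08, adjusted p = 4.76e-13) on the log2 scale. CAPN5 was higher in MM134, with a log2 difference of -3.37 (SE 0.13, adjusted p = 3.66e-17). For CAPN2, CAPN8 and CAPN9, which were higher in SUM44F, the mean LTED change was upward in MM134 and downward in SUM44. CAPN1, also higher in SUM44F, was DE in no LTED variant, and its interaction of 0.14 was not DE. CAPN5, higher in MM134, fell in MM134. The parental libraries enter both the difference between the lines and the LTED changes, so these are not separate observations.

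Among the 4 MM134 variants, CAPN2 separated 5 of the 6 pairs, the exception being LTED-A and LTED-E with a log2 difference of -0.48. Of all genes, 5.8% were DE between A and B, 8.05% between A and D, 6.25% between A and E, 5.97% between B and D, 7.99% between B and E and 9.51% between D and E. CAPN8 separated 4 pairs, CAPN9 3, CAPN1 2 and CAPN5 1, the last being LTED-B with LTED-D (0.65, edgeR adjusted p = 0.00017). The largest differences were of CAPN2 between LTED-A and LTED-D (-3.34, SE 0.08, adjusted p = 3.35e-20) and between LTED-D and LTED-E (2.87, SE 0.08, adjusted p = 7.54e-19). CAPN1 was lower in LTED-E than in LTED-A (-0.63, adjusted p = 2.08e-06) and LTED-B (-0.83, adjusted p = 2.28e-08). CAPN6, CAPN7, CAPN13, CAPNS1 and CAST separated 0 of the 6 pairs. Between SUM44 LTED-A and LTED-B, where 10.7% of all genes were DE, CAPN8 was the single member called, lower in LTED-B by 0.75 on the log2 scale (SE 0.08, adjusted p = 6.18e-08).

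Ordered by mean CPM over the 9 groups, CAPN2 ran from MM134 LTED-D and MM134 parental, which did not differ, through LTED-B, LTED-E and LTED-A to SUM44 LTED-A, SUM44 LTED-B, SUM44PE and SUM44F. Of its 8 steps between neighbours 4 were DE, the largest being that from MM134 LTED-A to SUM44 LTED-A (3.40, edgeR 9-group fit). The others were from MM134 parental to LTED-B (0.99), from LTED-B to LTED-E (1.77) and from SUM44 LTED-B to SUM44PE (0.91). CAPN5 had 2 such steps, from SUM44 LTED-B to MM134 LTED-B (0.94) and from MM134 LTED-D to MM134 parental (1.04). CAPN1 had 1, from MM134 LTED-B to SUM44 LTED-A (0.84), and CAPN9 had 1, from SUM44 LTED-A to SUM44PE (0.82). Between the groups of these steps the share of all genes DE was 7.99%, 13.3% and 14.8% within MM134, 15.6% and 21.6% within SUM44, and 33.1%, 33.3% and 34.9% across the lines. In the order of CAPN8 the lines alternated, from MM134 parental at the bottom to SUM44PE at the top, and none of its 8 steps was DE. CAPN6, CAPN7, CAPN13, CAPNS1 and CAST also had 0 DE steps, and for CAPN7 each MM134 group lay below each SUM44 group.

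For the 4 genes with the widest range of group means of log2(CPM + 1), a scale on which low genes such as CAPN6 range less, the most similar patterns among 13369 protein-coding genes were looked up by Pearson correlation over the 9 group means of log2(CPM + 1). These means share libraries and fall by line, so the values are descriptions. CAPN2 was closest to COG2 (0.988), FHIP2B (0.985) and RABIF (0.983). CAPN5 was closest to MRGPRF (0.988), ZNF462 (0.987) and RMC1 (0.987), and CAPN1 to DNAJC16 (0.990), GABARAP (0.986) and SIRT3 (0.983). CAPN8, whose pattern did not follow the lines, was closest to TAGLN (0.944), SCGB2A2 (0.933) and ARHGAP15 (0.924).

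Of the 8 other family genes examined, CAPN10 and CAPN15 were the most abundant, with group means of 15.6 to 31.1 CPM and 36.1 to 57.5 CPM, while CAPN3, CAPN11, CAPN12, CAPN14, CAPNS2 and ADGB did not exceed 4.94 CPM. In MM134, CAPN14 rose in LTED-A (log2 fold change 2.05), LTED-B (1.73) and LTED-E (1.91). CAPN11 and CAPN15 rose in LTED-D (0.80 and 0.63), and CAPN11 and CAPN12 fell in LTED-E (-0.81 and -0.84). In SUM44, CAPN3, the calpain of skeletal muscle, fell in LTED-A (-2.40) and LTED-B (-1.68), and CAPN11 rose in LTED-B (1.59). Over the LTED variants of both lines, 9.63% to 13.8% of protein-coding genes rose and 10.2% to 13.8% fell.

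Of 14 genes for calcium release, entry and pumping, which set the signal that calpains need, 3, 3, 4 and 4 rose and 1, 2, 1 and 1 fell in MM134 LTED-A, B, D and E. Among all protein-coding genes tested, 13.8%, 10.2%, 13.4% and 11.7% rose and 13.2%, 10.9%, 10.2% and 13.8% fell in these variants. In SUM44 LTED-A and LTED-B 1 and 1 rose while 4 and 5 fell, against 10.5% and 11.2% of protein-coding genes that fell. The channel gene TRPV6 rose in all MM134 variants, by 1.41 (LTED-B) to 2.71 (LTED-E), and fell by 2.25 and 1.43 in variants A and B of SUM44. The IP3 receptor gene ITPR1 fell by 1.63 and 1.53 in SUM44 and rose by 0.85 and 0.73 in MM134 LTED-B and LTED-D, and the pump gene ATP2B4 fell by 2.82 and 2.61 in SUM44. In the interaction, 7 of the 14 were higher in MM134 and 2 lower, against 14.7% and 15.7% of protein-coding genes. The median log2 fold change of the 14 was 0.11, 0.32, 0.49 and 0.28 in the MM134 variants and -0.41 and -0.26 in the SUM44 variants.

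Of 14 cytoskeletal and adhesion genes whose products calpains are known to cut, 1, 1, 3 and 1 rose and 2, 2, 1 and 2 fell in MM134 LTED-A, B, D and E, counts near those shares. The median of the 14 was -0.12, -0.05, 0.08 and 0.24. EZR, for the membrane linker ezrin, rose in all 4 (by 0.66 to 1.28), and FLNA, for filamin A, fell in all 4 (by 0.66 to 1.72). In SUM44, 1 rose in each variant and 2 and 3 fell, where 9.63% and 13.8% of protein-coding genes rose and 10.5% and 11.2% fell. ACTN1 fell by 0.86 in LTED-A and 1.78 in LTED-B. In SUM44F, SUM44 LTED-A and SUM44 LTED-B, FLNA had group means of 1065, 842 and 410 CPM and EZR 394, 615 and 500 CPM. VIM also fell in both, but its mean of 15.4 CPM in SUM44F includes the library with fibroblast markers. Of 11 signalling and cell death substrates, 3, 2, 3 and 3 rose and 1, 2, 2 and 2 fell in MM134, with medians of -0.08, 0.06, 0.22 and 0.06. In these variants 10.2% to 13.8% of protein-coding genes were called in each direction. The kinase genes SRC and PRKCA rose and CDK5R1, whose product p35 calpains cut, fell in all 4 MM134 variants. In SUM44, 2 of the 11 rose and 0 fell in each variant, against the SUM44 shares just given. The phosphatase gene PTPN1 was up in both (1.31 and 0.81).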

How the data were processed

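RNA-Seq counts of MM134 and SUM44 parental and LTED cells were analysed (27 libraries, 9 groups of 3). The authors prepared stranded total RNA libraries, sequenced them and estimated counts per Ensembl gene with Salmon 0.6.0 against hg38 (Ensembl release 82, per the submitters' processing notes and the paper's methods). The deposited file holds these estimated (expected) counts, without normalization. The strand setting is not given in the sources used here. Salmon's model assigned reads that fit more than 1 gene, which affects overlapping genes and paralogs. Symbols, positions and canonical transcript lengths came from GENCODE v44 by Ensembl ID (56434 of 60619 genes matched). Library totals, 28583554 to 134882175, set the counting precision.

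After rounding, low counts were removed (filterByExpr) and TMM factors computed, and edgeR 4.0.16 in R 4.3.3 gave the quasi-likelihood tests in 1 fit for MM134, 1 for SUM44F and its LTED variants, 1 adding SUM44PE, 1 of both lines for the interaction and 1 of all 9 groups for pairs. CPM are TMM-normalized. Intervals are 95%. A group was taken as undetected where no library exceeded 3 counts. The method was tested on simulated data. The paper used DESeq2, kept here as an alternative (version 1.42.0). Other alternatives were RLE size factors, no filter or 10 counts in every sample, fold minimums of 2 or none, an adjusted p under 0.05, a replicate block, leaving out each library, separate replicates of SUM44 LTED-A, a fit with SUM44PE, parental cells with 1 variant, lengths of merged exons, and library totals in place of TMM. Named were the 10 members, up to 3 DE genes with the largest change per list, comparison and direction, and 3 genes of similar pattern for each of the 4 members with the widest range. COL3A1 and ERAP1 were named after their values were seen. The members and lists were chosen with earlier results of these data known. Promoter sequences are RefSeq's (GRCh38.p14). Tables and figures were made with pandas 2.3.3, numpy 2.4.6 and matplotlib 3.10.9. Microarray and qPCR data were not analysed here.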

Additional observations from a re-analysis of the deposited data

Results flagged for a closer look

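The response of 6 of the 10 genes differed between the lines by a test of the difference itself, taking the mean log2 fold change over 4 MM134 LTED variants and subtracting the mean over 2 SUM44 LTED variants (edgeR interaction). The values were 2.83 for CAPN2, 2.27 for CAPN8, 1.51 for CAPN9, 0.94 for CAST, -1.96 for CAPN5 and -7.73 for CAPN6. Of all genes tested, 20.9% passed the same test, which leaves out the spread between the variants of a line. CAPN2 and CAPN8 were DE upward in at least 3 of the 4 MM134 variants and DE downward in both SUM44 variants, and CAPN6 was DE downward in all 4 and upward in both. In MM134, CAPN6 passed the removal of low counts through the parental libraries alone, so only a fall could be called there. The calls of CAPN6 in MM134 LTED-D and SUM44 LTED-A held in 20 of 23 and 10 of 19 alternatives, and against SUM44PE in place of SUM44F it was DE in neither SUM44 variant. CAPN5 was DE in all 4 MM134 variants. Its upward difference in SUM44 LTED-B was not DE in the fit of SUM44F and its variants (0.72) but was in the fit of all 9 groups (0.74) and by DESeq2 (0.76). The size of the value of CAPN6 rests on 0 to 4 counts per MM134 LTED library.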

How the results depend on the processing

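No call reversed its direction under any alternative. Of the 31 changes of members that were DE over the 8 comparisons, 21 were DE under each alternative in which the gene was tested, and 31 kept their sign in each. RLE size factors, no filter, DESeq2, an adjusted p under 0.05, separate replicates of SUM44 LTED-A and a SUM44 fit with SUM44PE left each count of DE members within 1.5 times. With no fold change minimum the count became 7 in each of MM134 LTED-A, B, D and E and 2 in SUM44PE. CAPN6 in MM134 LTED-D lost its call without parental replicate 1, LTED-D replicate 1 or LTED-D replicate 3. In SUM44 LTED-A, 5 members became 2 with a fold change above 2, and 2 when the fit held parental cells and 1 variant, where CAPN6, CAPN9 and CAST had adjusted p-values of 0.00464, 0.00129 and 0.00115 and fewer samples set the spread. Leaving out 1 library at a time, the count was 4 each time in variants A, B and E of MM134 and ranged from 2 to 3 in LTED-D, 3 to 4 in SUM44 LTED-A, 4 to 5 in SUM44 LTED-B, 0 to 1 in SUM44PE, and it was 6 each time in the interaction. The 0 in SUM44PE came without SUM44PE replicate 3 or SUM44F replicate 3 (CAPN6 at adjusted p-values of 0.00101 and 0.00109). The 3 in SUM44 LTED-A came without SUM44F replicate 2, LTED-A replicate 1 or LTED-A replicate 2, and leaving out either sample of LTED-A assumes that the lone sample varies like the other groups. CAPN6 lost its call there without any 1 library of that fit other than LTED-A replicate 2, and without LTED-A replicate 1 its log2 fold change was 1.64. CAPN5 was DE in SUM44 LTED-B by DESeq2 (0.76) and with no filter (0.74), and CAST was with 10 counts in every sample (-0.61) or without LTED-B replicate 1 (-0.60). With 10 counts in every sample CAPN6 was not tested in MM134 or in the interaction. Lengths of merged exons gave 0.337 to 1.00 times the levels per kilobase and library totals 0.870 to 1.09 times.

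The deviations of same-numbered libraries from their group means had r from -0.50 to 0.37 over 37 pairs, 9 of them over 0.1. Pairs with different numbers were not computed, so this does not settle whether the replicate numbers pair the samples. With the replicate number as a block, the members called were 4, 4, 3 and 4 in MM134 LTED-A, B, D and E, 4 in SUM44 LTED-A (CAPN6 at an adjusted p of 0.00338), 4 in SUM44 LTED-B, 1 in SUM44PE and 6 in the interaction, and the DE genes of SUM44 LTED-A went from 3669 to 2860.

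Wells of 1 culture do not show how other derivations would vary. The 2 samples of SUM44 LTED-A and the few counts of CAPN6 limit the power there, and levels between genes depend on the transcript length assumed.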

Other observations

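The genes around CAPN5 and CAPN6 were looked at in the same way. Of the 40 nearest tested protein-coding genes around CAPN5, 11 were downregulated and 3 upregulated in MM134 LTED-A, and 11 and 1 in MM134 LTED-B, where 13.2% and 10.9% of protein-coding genes were downregulated, and the medians were -0.08 and -0.19 on the log2 scale. In MM134 LTED-D and LTED-E, 7 and 10 were downregulated and 6 and 4 upregulated, with medians of 0.08 and 0.03. In SUM44 LTED-A and LTED-B, CAPN5 was 0.52 and 0.72 above SUM44F without being DE. There 4 and 10 of the 40 were upregulated and 7 and 5 downregulated, with medians of -0.14 and 0.31. Among protein-coding genes, 9.63% and 13.8% were upregulated and 10.5% and 11.2% downregulated in these SUM44 variants, with medians of 0.01 and 0.05. Around CAPN6, on the X chromosome, 11, 10, 11 and 9 of 40 were downregulated and 7, 6, 8 and 6 upregulated in MM134 LTED-A, B, D and E, with medians from -0.27 to -0.15. Of protein-coding genes, 10.2% to 13.8% were called in each direction in these variants. Around CAPN9 the medians lay between -0.02 and 0.07 in the MM134 variants. In SUM44 LTED-A and LTED-B, where CAPN9 fell, 10 and 5 of the 40 were downregulated and 3 and 3 upregulated. The medians there were -0.04 and 0.06, and 10.5% and 11.2% of protein-coding genes were downregulated.

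CAPN8 and CAPN9 were present in a fixed order but not in a fixed ratio. Per kilobase of canonical transcript, CAPN8 was 3.35 ± 0.47 (SD, n = 3) times as abundant as CAPN9 in MM134 parental cells, 8.65 ± 0.92 (n = 3) times in LTED-B and 2.49 ± 0.20 (n = 3) times in LTED-E. In SUM44 the ratio was 3.45 ± 0.19 (n = 3) in SUM44F and 3.06 ± 0.09 (n = 3) in LTED-B. They depend on the length used: the canonical transcript has 2387 bases for CAPN8 and 2575 for CAPN9, the merged exons 5174 and 2593. With merged exons each ratio would be lower. These ratios are descriptions and were not tested.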
